A study of Mus musculus with 24 samples.

Results

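The genes described here were 10 claudin and tight junction genes, chosen by symbol: 6 claudins (Cldn1, Cldn2, Cldn3, Cldn4, Cldn7 and Cldn12), Ocln, F11r, Tjp1 and Tjp3. Each had 1 row in each of the 3 expression tables, which list 31053, 25876 and 20729 genes. The study grew organoids from adult BALB/c mouse liver and sequenced 24 RNA libraries. Hepatocyte organoids (Hep-Orgs) came from wild-type hepatocytes purified on Percoll and depleted of EpCAM-positive cells with beads, and cholangiocyte organoids (Cho-Orgs) from the EpCAM-positive cells of the same digests. Both were grown in Matrigel with R-spondin, EGF, FGF10, HGF, A83-01 and a ROCK inhibitor. The Hep-Orgs medium also held CHIR99021, FGF7, the Notch pathway inhibitor DAPT and the glucocorticoid dexamethasone, and the Cho-Orgs medium also held Noggin, Wnt3a and forskolin.

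The first table held Primary hepatocytes (Pri-Hep) and Hep-Orgs at passages P1, P5 and P10, with 3 libraries each. The second held Cho-Orgs at P0, P5 and P10 (Cho-org-P0-M, Cho-org-P5-M and Cho-org-P10-M), with 3 libraries each. The third held Smart-Seq libraries of P0 Hep-Orgs picked by shape (grape-like, round-like or intermediate, 1 library a shape), which were grown in the same hepatocyte medium before DAPT and dexamethasone were added to it. Values were FPKM, fragments scaled to transcript length and to the depth of the library, which can be compared between genes of different length. The tables had been normalized separately, so values from different tables are set side by side without a test. Depth was 14068906 to 27160365 fragments in the hepatocyte table, about 37640000 to 39940000 in the Cho-Orgs table and about 39900000 to 40460000 in the Smart-Seq table.

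The labels were checked against marker genes before the comparisons. The libraries labelled Primary hepatocytes held higher sums of cholangiocyte than of hepatocyte markers. Their 10 hepatocyte markers summed to 547 to 581 FPKM, of which Ttr gave 419 and Alb 112 FPKM, and 5 of the 10 were at 1 FPKM or more. Cyp2e1, a cytochrome P450 of mature hepatocytes, had a mean of 0.0100 FPKM and Asgr1, the asialoglycoprotein receptor, 0.0117 FPKM. Their 10 cholangiocyte markers summed to 4346 to 4471 FPKM, led by Spp1 at 3144 FPKM, close to the 4273 to 4518 FPKM in the Hep-Orgs of that table. In both, 9 of the 10 were at 1 FPKM or more. All 10 cholangiocyte markers reached 1 FPKM in the Cho-Orgs at every passage, but the hepatocyte markers summed to 5024 to 5944 FPKM at P0 (8 of 10 at 1 FPKM or more, Alb at 4994 FPKM) and to 75.4 to 81.0 FPKM at P10, where Cps1 and Cyp2e1 were at 0.

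Tight junctions seal the space between neighbouring epithelial cells near their apical side, where they separate bile from blood in the liver. Claudins and occludin span the membrane and set which ions and solutes pass between cells, junctional adhesion molecules add adhesion, and the zonula occludens (ZO) proteins tie them to the actin cytoskeleton on the cytoplasmic side. Some claudins, with claudin-2 the best known, form pores for small cations and water, whereas others, such as claudin-3 and claudin-4, are known mainly as barrier formers.

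In the GRCm38 (mm10) assembly the claudins lay on chromosomes 16 (Cldn1, chr16:26356642-26371841), X (Cldn2, chrX:139800828-139811386), 5 (Cldn3, chr5:134986214-134987472, Cldn4, chr5:134945119-134946934, and Cldn12, chr5:5489537-5514958) and 11 (Cldn7, chr11:69964779-69967885). Ocln was at chr13:100496507-100552718, F11r at chr1:171437535-171464603, Tjp1 at chr7:65296165-65527781 and Tjp3 at chr10:81273207-81291581. Cldn3 and Cldn4 are single-exon genes on opposite strands whose 5′ ends face each other, 39280 bases apart. The exons of Cldn3 and of Tjp3 each shared 40 bases with a gene on the other strand (Wbscr25 and Apba3), whose reads cannot be told apart there because, although the methods describe strand-specific reads for the bulk libraries, no source used here states that counting used strand.

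The 250 bases before the start of Cldn2, Cldn3 and Cldn4 are shown because Cldn2 was lower, and the neighbouring genes Cldn3 and Cldn4 higher, at the last passage of Cho-Orgs. They are RefSeq sequences of GRCm38.p6, written 5′ to 3′ on the gene's own strand, at chrX:139800558-139800807 (plus strand), chr5:134985964-134986213 (plus) and chr5:134946935-134947184 (minus). Capitals mark matches to the motifs searched. Positions are counted from the RefSeq start, which for Cldn2 lies slightly upstream of the start given above.
Cldn2: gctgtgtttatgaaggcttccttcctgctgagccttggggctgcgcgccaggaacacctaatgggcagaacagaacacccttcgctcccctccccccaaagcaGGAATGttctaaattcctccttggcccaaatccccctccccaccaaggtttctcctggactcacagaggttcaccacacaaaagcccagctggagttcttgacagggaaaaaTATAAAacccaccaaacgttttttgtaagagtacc
Cldn3: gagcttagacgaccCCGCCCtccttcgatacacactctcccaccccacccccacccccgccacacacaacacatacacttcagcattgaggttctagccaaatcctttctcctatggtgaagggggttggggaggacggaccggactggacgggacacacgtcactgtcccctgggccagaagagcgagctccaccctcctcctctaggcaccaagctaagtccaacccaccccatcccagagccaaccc
Cldn4: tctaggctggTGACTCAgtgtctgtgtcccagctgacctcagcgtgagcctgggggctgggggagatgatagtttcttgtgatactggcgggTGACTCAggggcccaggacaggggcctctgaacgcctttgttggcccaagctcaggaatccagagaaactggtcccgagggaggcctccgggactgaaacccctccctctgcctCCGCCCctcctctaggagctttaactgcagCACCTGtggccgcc
The 6 motifs were searched on both strands: the E-box CACCTG, the GC box GGGCGG, the AP-1 site TGANTCA, the TEAD motif CATTCC, the grainyhead-like motif AACCNGTT and the TATA box TATAAA. No matches overlapped in the 3 sequences shown. Cldn2 held a TATA box at -35 and a TEAD match at -147, and its GC content was 52%, near the median of 52.4% over all 32851 promoter entries. Cldn4 held 2 AP-1 matches, at -240 and -158, a GC box at -44 and an E-box at -14, with a GC content of 62%. Cldn3 held a single GC box at -236, with a GC content of 60.8%. Over all promoters, 12.4% held the TATA box, 12.6% the TEAD motif, 6.75% the AP-1 site, 17.2% the E-box, 32.7% the GC box and 1.79% the grainyhead-like motif. Among the 10 genes, the E-box was found before Cldn4, Cldn7, F11r, Ocln and Tjp3, the AP-1 site before Cldn4 and F11r, and the grainyhead-like motif before none.

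In Cho-Orgs, claudin-2 transcripts fell with passage while those of claudin-3, claudin-4, claudin-12, occludin and ZO-1 were higher at P10 than at P0. Claudin-7, JAM-A and ZO-3 transcripts did not pass the test between P0 and P10. The comparison asked how the junction genes of Cho-Orgs changed over long culture. It used limma on log2(FPKM + 1), with p-values adjusted by the Benjamini-Hochberg method over 11593 genes, and a call needed an adjusted p under 0.05. Cldn1 was below the filter of 1 FPKM in 3 libraries, so 9 of the 10 genes were tested. All fold changes below are log2 differences on that scale, with their standard error (SE).

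Cldn2, the pore-forming claudin, had the highest level of the 10 genes at each passage. It measured 478, 397 and 492 FPKM in the 3 P0 libraries, 368, 325 and 375 at P5, and 245, 243 and 249 at P10. The 3 passages did not overlap, and the P10 libraries were also the closest to each other. The first step gave a log2 change of -0.35 (SE 0.08, adjusted p = 0.005328, limma), the second -0.53 (SE 0.08, adjusted p = 0.0004148) and both together -0.88 (SE 0.08, adjusted p = 7.364e-06), and the mean at P0 was 1.85-fold that at P10. Without replicate 3 of each passage, the adjusted p from P0 to P5 was 0.05339.

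Cldn4, a barrier claudin, moved the other way and did so early. It measured 105, 151 and 112 FPKM at P0, 198, 203 and 198 at P5, and 211, 209 and 215 at P10. The P0 libraries were the lowest and the most spread, and their second library held both the highest Cldn4 and the lowest Cldn2 of that passage. By P5 its log2 change was 0.71 (SE 0.11, adjusted p = 0.0004075, limma) and by P10 it was 0.80 (SE 0.11, adjusted p = 9.818e-05). From P5 to P10 it was 0.09 (SE 0.11, adjusted p = 0.5162), although the libraries of these passages did not overlap.

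Cldn3, the neighbour of Cldn4 on chromosome 5 and likewise a barrier claudin, had another course. It measured 137, 168 and 165 FPKM at P0, 132, 144 and 134 at P5, and 212, 197 and 192 at P10. P0 and P5 overlapped and the P10 libraries lay above both. Against P0 the log2 difference was -0.19 (SE 0.08, adjusted p = 0.06721, limma) at P5 and 0.36 (SE 0.08, adjusted p = 0.002362) at P10, and P10 against P5 gave 0.54 (SE 0.08, adjusted p = 0.0002433). The first of these depended on the libraries and the scaling, with adjusted p = 0.008688 without replicate 1 and 0.02374 with median-ratio size factors.

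Cldn12, a claudin without the usual C-terminal PDZ-binding motif, rose at both steps from a lower level. Its libraries held 20.6, 21.6 and 20.0 FPKM at P0, 27.2, 27.1 and 26.8 at P5, and 36.4, 36.35 and 36.1 at P10. No passages overlapped. The log2 change from P0 to P10 was 0.78 (SE 0.04, adjusted p = 1.922e-07, limma), with 0.37 (adjusted p = 8.187e-05) in the first step and 0.41 (adjusted p = 3.514e-05) in the second.

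Cldn7, a claudin of basolateral as well as junctional membranes that binds EpCAM, measured 191, 171 and 184 FPKM at P0, 200.0, 188 and 195 at P5, and 186, 193 and 192 at P10. All passages overlapped. Its log2 difference from P0 to P10 was 0.06 (SE 0.05, adjusted p = 0.296, limma) and turned to -0.044 with median-ratio size factors. Epcam itself had means of 451, 490 and 259 FPKM at P0, P5 and P10 and fell by 0.79 on the log2 scale (adjusted p = 7.435e-07) from P0 to P10.

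Cldn1, a claudin of hepatocyte junctions, was near the detection floor in Cho-Orgs. It measured 0.155, 0.147 and 0.253 FPKM at P0, 0.155, 0.105 and 0.0322 at P5, and 0.0324, 0.0247 and 0.0165 at P10. The P10 values stood for about 3 to 6 fragments a library, against a floor of 3 fragments, and the P0 values for about 28.4 to 48.0 fragments. P0 and P10 did not overlap, and P5 overlapped both.

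**Figure D1:**
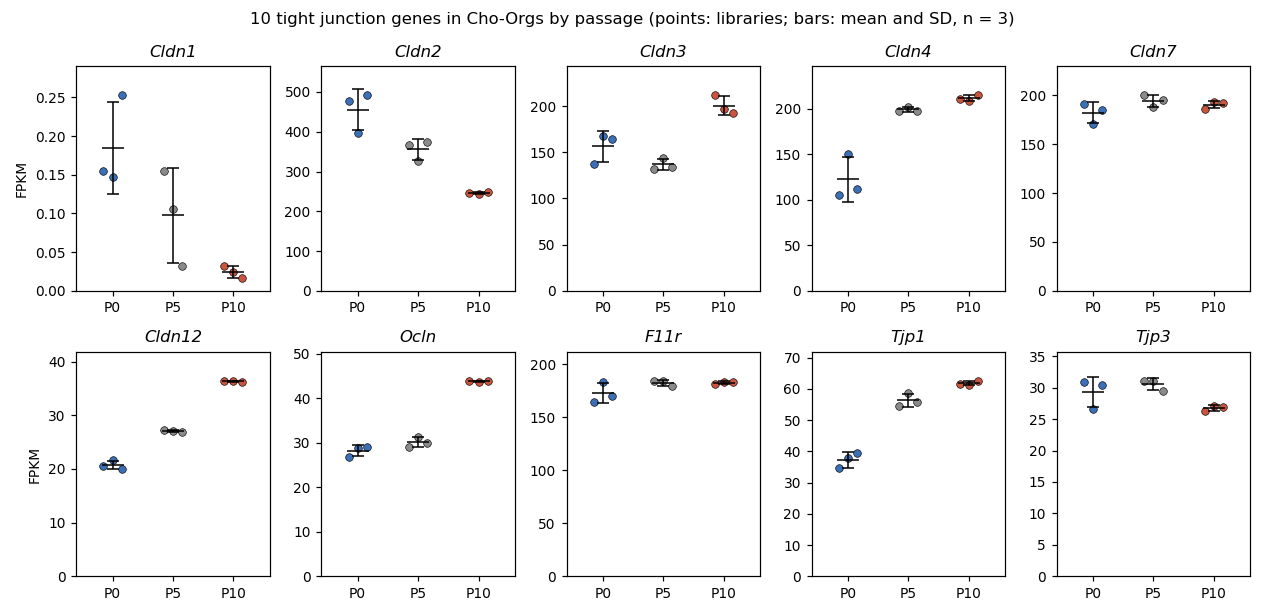
FPKM of the 10 tight junction genes in Cho-Orgs at P0, P5 and P10, 1 panel a gene, each axis starting at 0, where points are libraries and bars the mean and SD of 3 libraries. Cldn2 falls from a mean of 456 to 246 FPKM, Cldn4 rises from 123 to 212 FPKM mostly before P5, and Cldn3 and Ocln are highest at P10.

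The make-up of the claudin transcripts shifted with these changes, while their sum was somewhat lower at P10. Over the 20 claudins listed in the Cho-Orgs table, summed FPKM was 982 ± 34.6, 975 ± 27.5 and 913 ± 7.31 (SD, n = 3) from the first to the last passage. The P10 libraries (906.7 to 921 FPKM) lay below those of P0 (961.5 to 1022 FPKM). Median-ratio size factors were 0.9414 to 0.975 at P0 and 1.029 to 1.036 at P10, so dividing by them would widen this fall in the sum. Cldn2 made up 46.4% ± 4.49 of that sum at P0, 36.5% ± 1.76 at P5 and 26.9% ± 0.331 at P10. Cldn4 made up 12.5% ± 2.72, 20.5% ± 0.870 and 23.2% ± 0.354. Cldn2 thus went from the clear leader to a level close to Cldn4: the ratio of Cldn2 to Cldn4 was 3.85 ± 1.06 at P0, 1.79 ± 0.157 at P5 and 1.16 ± 0.00366 at P10. This ratio lies within a library and does not depend on scaling, and it is given as a description without a test. Cldn3 held 15.9%, 14.1% and 21.9% of the sum at the 3 passages, Cldn7 18.6%, 19.9% and 20.8%, and Cldn12 2.12%, 2.78% and 3.98%.

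**Figure D2:**
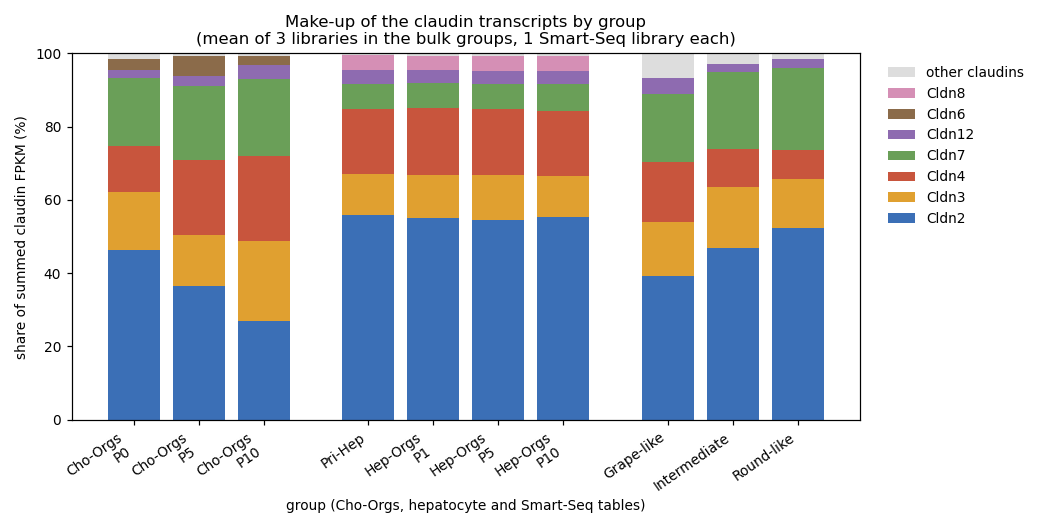
Share of the summed claudin FPKM in percent held by each claudin in the 10 groups, as the mean of 3 libraries in the bulk groups and 1 library each in the Smart-Seq groups. Cldn2 shrinks from 46.4% to 26.9% over the Cho-Orgs passages, stays between 54.55% and 55.8% in the hepatocyte table and is 39.3% in the grape-like, 47.0% in the intermediate and 52.3% in the round-like library.

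Ocln encodes occludin, a membrane protein of the tight junction strands, and rose late. It measured 26.9, 28.8 and 29.1 FPKM at P0, 29.15, 31.3 and 30.04 at P5, and 43.9, 43.8 and 43.8 at P10. The P10 libraries lay far above the others, and P0 and P5 lay side by side without overlap. The log2 difference from P0 to P5 was 0.09 (SE 0.05, adjusted p = 0.1362, limma), and the change from P5 to P10 was 0.53 (SE 0.05, adjusted p = 1.394e-05).

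F11r encodes the junctional adhesion molecule JAM-A and was nearly level. It measured 165, 184 and 170 FPKM at P0, 184.5, 184 and 179.6 at P5, and 181, 183.5 and 184 at P10. All passages overlapped, and the log2 difference from P0 to P10 was 0.08 (SE 0.05, adjusted p = 0.1472, limma), or -0.025 with median-ratio size factors. Of its 50-base words, 0.868% also occur in other genes, and the other 9 genes shared none.

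Tjp1, which encodes the scaffold ZO-1, rose early. It measured 34.65, 37.8 and 39.6 FPKM at P0, 54.7, 58.65 and 55.8 at P5, and 61.6, 61.4 and 62.6 at P10. The passages did not overlap. Against P0 it was up by 0.58 on the log2 scale (SE 0.06, adjusted p = 1.909e-05, limma) at P5 and by 0.72 (SE 0.06, adjusted p = 1.744e-06) at P10, and the difference of 0.13 (SE 0.06, adjusted p = 0.06169) from P5 to P10 did not pass.

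Tjp3, which encodes the related scaffold ZO-3, went slightly the other way. It measured 30.85, 26.6 and 30.4 FPKM at P0, 31.1, 31.05 and 29.45 at P5, and 26.3, 27.05 and 26.9 at P10. P10 lay below P5 and overlapped P0. The log2 change from P5 to P10 was -0.18 (SE 0.06, adjusted p = 0.0239, limma), and it did not hold without replicate 1 (adjusted p = 0.1136) or replicate 3 (adjusted p = 0.09025). From P0 to P10 the log2 difference was -0.12 (SE 0.06, adjusted p = 0.09383), but -0.23 (adjusted p = 0.003596) with median-ratio size factors.

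The order of levels changed accordingly. At P0, Cldn2 stood alone above Cldn7, F11r, Cldn3 and Cldn4, whose neighbours in that order overlapped, and Tjp1, Tjp3, Ocln, Cldn12 and Cldn1 followed, with Tjp3 and Ocln overlapping. At P10, Cldn2 stood above Cldn4, Cldn3 and Cldn7, which overlapped as neighbours, and F11r came next. Below these the order at P10 was Tjp1, Ocln, Cldn12, Tjp3 and Cldn1, with no overlap, so that Tjp3 had passed from above Ocln and Cldn12 to below both.

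**Figure D3:**
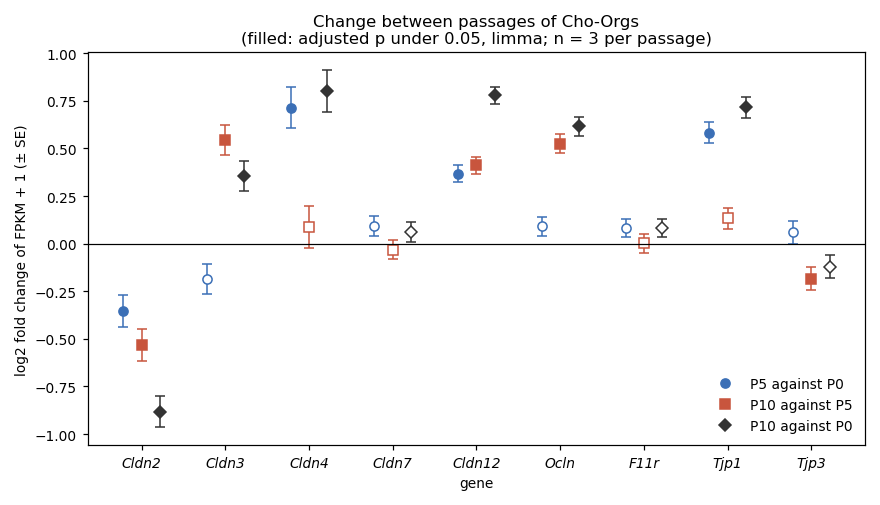
Log2 change of FPKM + 1 with its SE between Cho-Orgs passages for the 9 genes tested, where blue circles are P5 against P0, red squares P10 against P5, black diamonds P10 against P0, and filled symbols have an adjusted p under 0.05 (limma, n = 3 libraries a passage). Tjp1 and Cldn4 change mostly in the first step (0.58 and 0.71), Cldn3 and Ocln in the second (0.54 and 0.53), and Cldn2 and Cldn12 in both.

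The timing itself differed between genes. The change from P5 to P10 minus that from P0 to P5 was tested in the same fit, in which 48.7% of all genes tested were called. It was positive for Cldn3 (0.73, SE 0.14, adjusted p = 0.001816, limma) and Ocln (0.43, SE 0.08, adjusted p = 0.00219), and negative for Tjp1 (-0.45, SE 0.10, adjusted p = 0.003744) and Cldn4 (-0.63, SE 0.19, adjusted p = 0.02086). The other 5 genes did not pass. The Cldn4 difference was lost without replicate 1 (adjusted p = 0.09112) and without replicate 3 (adjusted p = 0.154), and the Ocln difference without replicate 3 (adjusted p = 0.05555).

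Change was the rule in this table. From P0 to P5, 4 of the 9 tested genes were called (3 higher, 1 lower), where 56.6% of all genes tested were called (34% higher, 22.6% lower). On values rescaled to TPM, 7 of the 9 were called (6 higher, 1 lower), and with median-ratio size factors the calls over all genes split into 3212 higher and 3360 lower, against 3938 and 2621. From P0 to P10 it was 6 of 9 (5 higher, 1 lower) beside 72.3% of all genes (41% higher, 31.3% lower), and from P5 to P10 it was 5 of 9 (3 higher, 2 lower) beside 61.5% (31% higher, 30.5% lower). The median log2 change of the 9 genes from P0 to P10 was 0.36, beside 0.07 over all genes tested.

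Several marker lists moved along with passage in the same libraries. The 10 proliferation genes summed to 221 to 330 FPKM at P0, 117 to 127 at P5 and 14.5 to 16.3 at P10, and all 10 were at 1 FPKM or more at P0 against 6 at P10. The 10 squamous epithelium genes summed to 132 to 203 FPKM at P0, 265 to 319 at P5 and 959 to 1017 at P10, with 6 of 10 at 1 FPKM or more at P10, Sprr1a leading at 802 FPKM and Sprr1b at 0. The 10 cholangiocyte markers summed to 5359 to 6683 FPKM at P0 and 3582 to 3613 at P10. The part of these lists, and of the hepatocyte genes given above, in the junction gene changes was not tested. In such bulk libraries, fewer cells of a type and less RNA per cell cannot be told apart.

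The rest of the junction was read from a list of 49 symbols of other tight junction genes, of which 31 were tested in Cho-Orgs. Pals1 and Mpp5 on this list name the same gene. From P0 to P10, 22 were called (17 higher, 5 lower), a share near the 72.3% of all genes tested (41% higher, 31.3% lower). With median-ratio size factors 21 were called (14 higher, 7 lower), beside 3939 higher and 4334 lower over all genes. Of the 11 genes tested in the sublist of tight junction scaffolds, which counts Ybx3 and Sympk, 10 were higher and Amotl1 was lower (log2 change -0.83). Among them Amotl2, an angiomotin family scaffold, rose by 1.84 (SE 0.16, adjusted p = 3.321e-06, limma) and Cgn, which encodes cingulin, by 1.00 (SE 0.05, adjusted p = 7.215e-08). The smallest rises in this sublist were 0.18 for Magi1 and 0.19 for Sympk. Of 8 polarity complex genes tested 5 were higher and none lower.

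Of the 7 other claudins and MARVEL proteins tested, 1 was higher and 2 were lower from P0 to P10. Differences between these sublists were not tested. Cldn15, a channel-forming claudin, fell by 2.36 on the log2 scale (SE 0.43, adjusted p = 0.0006653, limma) from a P0 mean of 6.87 ± 5.31 FPKM (SD, n = 3), a wide spread. The size of this fall depended on the scale, with -3.81 at a pseudocount of 0.1 and -3.01 on values rescaled to TPM. Marveld2, which encodes tricellulin of tricellular contacts, differed by -0.10 (adjusted p = 0.1661). Of the 5 adhesion genes of the JAM, CTX and angulin families, 1 was higher and 2 were lower, among them Esam, an adhesion molecule also known from endothelium, at -1.13 (SE 0.14, adjusted p = 6.026e-05), or -1.84 at a pseudocount of 0.1. Esam had means of 2.69, 4.65 and 0.669 FPKM at the 3 passages, so that it was highest at P5. The 10 endothelial markers summed to 1.01 to 1.93 FPKM at P0, 10.7 to 17.8 at P5 and 1.28 to 1.71 at P10, with Clec4g at 0 throughout. The P5 sum was led by Tek, with a mean of 13.2 FPKM. At P5, 8 of the 10 markers were under 1 FPKM, as were all 10 at P0 and at P10. The part of these markers in the Esam values was not tested. The most abundant gene of the list was Lsr, the angulin lipolysis-stimulated lipoprotein receptor, with a mean of 125.7 FPKM over the 9 libraries.

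Several genes of the list were called higher from P0 to P5 and lower from P5 to P10, namely Cldn6, Cldn9, Esam, Ildr1, Pals1 and Prkcz, and Pard3 was called lower and then higher. They were named after their values were seen, and values are given for Cldn6 and Ildr1, whose log2 rises and falls were both near 1. Cldn6, an embryonic claudin, had means of 28.7 ± 14.3, 53.0 ± 3.44 and 22.0 ± 0.80 FPKM (SD, n = 3). Its log2 change was 0.97 in the first step (adjusted p = 0.009655, limma) and -1.23 in the second (adjusted p = 0.002351). The rise did not hold without replicate 1 (adjusted p = 0.06498) or replicate 3 (adjusted p = 0.1165). Ildr1, another angulin, had means of 16.7, 31.75 and 15.6 FPKM, with changes of 0.92 (adjusted p = 0.000398) and -0.98 (adjusted p = 0.0002249).

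The genes whose pattern over the 9 Cho-Orgs libraries lay closest to each member were found by the root mean square difference of centred log2 values, among genes with a mean of 5 FPKM or more. Stard10 (0.0808) and Calm3 (0.0832) came closest to Cldn2, and Ston1 (0.0697) and Nceh1 (0.0773) to Cldn4. Tnip1 (0.0501) and Hdac5 (0.0704) came closest to Cldn3, Atg13 (0.0281) and Ndel1 (0.0310) to Cldn12, Rnf44 (0.0425) and Bltp3b (0.0446) to Ocln, and Ppl (0.0312), which encodes the desmosome-linked protein periplakin, and Ttc14 (0.0351) to Tjp1. Cldn7, F11r and Tjp3 varied by an SD under 0.2 on the log2 scale and were given no such genes.

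In the hepatocyte table, no tight junction gene passed the test in any comparison, and levels in the libraries labelled Primary hepatocytes were close to those in the Hep-Orgs. Claudin-2 was again the most abundant transcript, followed by JAM-A and claudin-4. The comparison asked whether these genes differed between primary cells and organoids and over passages. With 10986 genes tested, 0 of the 9 tested genes passed limma in Hep-Orgs P1, P5 or P10 against Pri-Hep or in P10 against P1, where 0.0091%, 0.0091%, 0% and 0% of all genes were called. At an unadjusted p under 0.05 the genes were 1, 1, 1 and 3 of the 9, beside 911, 1184, 730 and 986 of the 10986 genes. limma-voom on the recovered fragments also called 0 of them, and 30, 39, 0 and 29 of all genes. The largest log2 differences among the 9 genes were 0.11, 0.14, 0.07 and 0.13, and none of 29 other tight junction genes tested passed.

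Over the 12 libraries, Cldn2 ranged from 397.5 to 412 FPKM with a median of 404.5, and its group means were 404 ± 3.61 FPKM for Pri-Hep and 410 ± 2.80, 406 ± 5.02 and 400.1 ± 2.45 for Hep-Orgs P1, P5 and P10 (SD, n = 3). F11r ranged from 136 to 150.3 FPKM with a median of 139.8, and Cldn4 from 123 to 138 with a median of 134. No group of these genes lay apart from all the others, but the P1 libraries lay above those of P10 for Cldn2 and above those of Pri-Hep for Cldn4. Cldn3 ranged from 77.9 to 93.1 FPKM, with means of 81.9 ± 3.72, 88.4 ± 4.25, 90.35 ± 2.97 and 80.7 ± 1.88 in the same order of groups. Its P1 and P5 libraries lay above its P10 libraries, and this was among the 3 genes with an unadjusted p under 0.05 from P1 to P10 (adjusted p = 0.3588, limma). Tjp1 ranged from 81.3 to 87.0 FPKM, with its 3 highest libraries all at P10, where the mean was 86.0 ± 0.925. Cldn7 averaged 51.5 ± 2.09 FPKM over the 12 libraries, Ocln 47.2 ± 0.674, Cldn12 25.9 ± 0.851 and Tjp3 16.7 ± 0.632. Cldn1 averaged 0.318 ± 0.0844 FPKM, from 17 to 44 fragments a library.

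The spread over all 12 libraries, whichever label they carried, was small for the 9 genes tested and larger for Cldn1 (26.6%, where counting alone would give 19.5%). The coefficient of variation, used here for the spread, was 1.18% for Cldn2, 1.43% for Ocln, 2.07% for Tjp1 and 6.04% for Cldn3, where fragment counting alone would give 0.639%, 1.66%, 0.916% and 2.27%. Counting noise did not account for all differences between pairs of libraries: the per-gene chi-square statistic, as a median over genes and relative to its value under counting noise alone, was 1.6 in the median of the 12 pairs within a label and 1.75 in that of the 54 pairs between labels. No libraries were merged. Differences beyond counting noise do not show that libraries came from separate cultures, and whether these did was not tested.

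**Figure D4:**
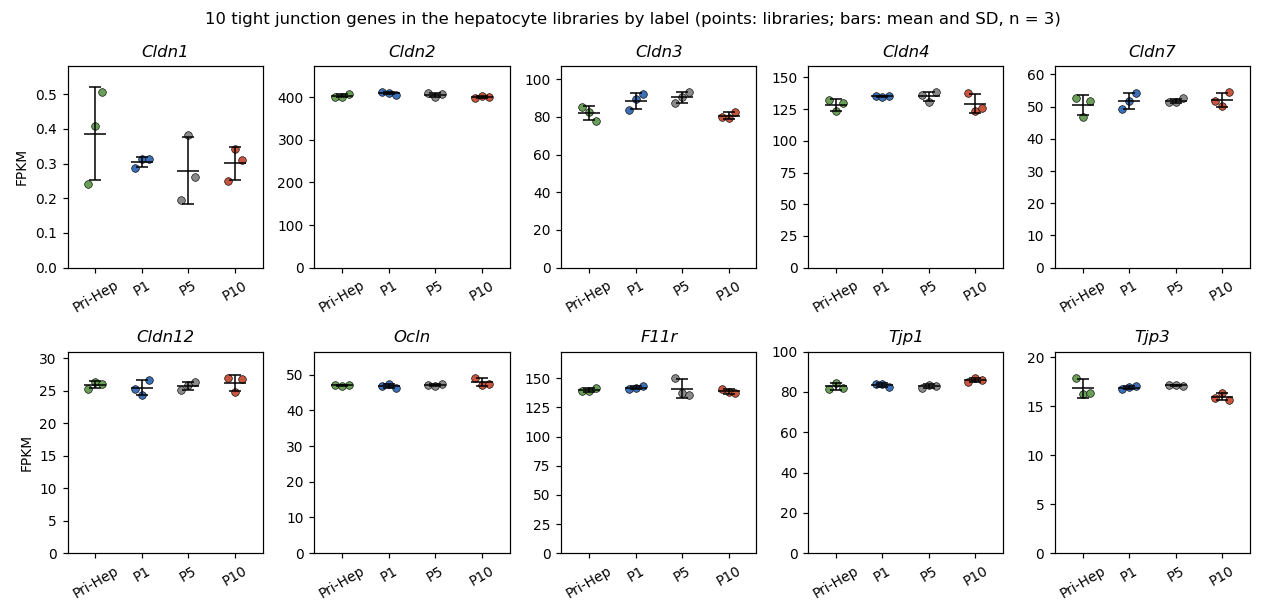
FPKM of the 10 tight junction genes in the libraries labelled Pri-Hep and in Hep-Orgs at P1, P5 and P10, 1 panel a gene, each axis starting at 0, where points are libraries and bars the mean and SD of 3 libraries. Levels differ between genes (405 FPKM for Cldn2, 0.318 FPKM for Cldn1) and hardly between labels.

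The order of levels in this table was Cldn2, F11r, Cldn4, then Cldn3 and Tjp1, then Cldn7, Ocln, Cldn12, Tjp3 and Cldn1. F11r and Cldn4 overlapped at P5 and P10, Tjp1 and Cldn3 overlapped in Pri-Hep and P1, and Cldn7 and Ocln overlapped in Pri-Hep. Beside the Cho-Orgs, the hepatocyte table held the claudins in other proportions: Cldn2 made up 54.55% to 55.8% of summed claudin FPKM in the group means and Cldn4 17.7% to 18.2%, but Cldn7 only 6.95% to 7.21%. Cldn8, a claudin of tight epithelia, had means of 29.7 to 31.05 FPKM here and of 1.41 to 2.84 FPKM in Cho-Orgs, whereas Cldn6 had means of 0.366 to 0.484 FPKM here. These tables were not tested against each other.

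Among the 3 shapes of P0 Hep-Orgs, the grape-like library held less of 9 of the 10 junction transcripts and more of Cldn1 than the round-like library. The intermediate library was close to the round-like one except for Cldn1. There was 1 library a shape, so no test was possible. Ratios of FPKM carry a 95% exact interval that covers counting error only, from fragment numbers estimated from each library's depth. Every member lay above the floor of 3 fragments in all 3 libraries.

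Cldn2 measured 67.0 FPKM in the grape-like, 342 in the intermediate and 406 in the round-like library. Cldn7 measured 31.5, 153 and 175 FPKM in the same order, and Ocln 4.35, 19.4 and 24.1. Among the 9 genes lower in the grape-like library these had the highest ratios, with round-like over grape-like ratios of 6.06 (5.93 to 6.20) for Cldn2, 5.56 (5.33 to 5.81) for Cldn7 and 5.54 (5.12 to 6.0) for Ocln. Tjp3 measured 7.35, 34.5 and 32.8 FPKM (ratio 4.46, 4.18 to 4.77) and Cldn3 25.1, 119 and 103 FPKM (ratio 4.10, 3.86 to 4.37). Cldn3, Cldn4, F11r and Tjp3 were highest in the intermediate library.

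The narrower gaps were those of F11r at 42.75, 126 and 114 FPKM (ratio 2.68, 2.59 to 2.77), Cldn12 at 7.38, 15.4 and 17.8 (2.41, 2.26 to 2.58), Tjp1 at 12.6, 21.2 and 30.03 (2.39, 2.30 to 2.48) and Cldn4 at 27.9, 76.45 and 61.45 (2.20, 2.09 to 2.32). Cldn1 measured 1.04, 1.35 and 0.146 FPKM, about 201, 265 and 28 fragments, so that the grape-like library held 7.15-fold (4.86 to 11.2) and the intermediate library 9.30-fold (6.36 to 14.4) the round-like level.

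On log2(FPKM + 1), 9 of the 10 genes were past 2-fold lower in the grape-like than the round-like library, where 8.95% of the 12417 genes compared were past 2-fold lower and 13.1% higher (22.1% in either direction). In the grape-like against the intermediate library 7 were past 2-fold lower, where 7.32% of all genes were (9.94% higher, 17.3% in either direction), and in the intermediate against the round-like library Cldn1 alone was past 2-fold, higher, where 4.03% of all genes were (2.66% lower, 6.69% in either direction). Cldn1 entered the comparisons with the round-like library only through the library where it was high, since 1 FPKM in either library was required, and its log2 ratio of 1.04 in the intermediate library lay just past the limit. The median over all genes of grape-like against round-like was -0.13 on the log2 scale and 0.01 with median-ratio size factors, which left 8 genes past 2-fold lower. The median of the 10 genes was -1.70 and -1.54 on these scales.

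Other markers moved with shape in the same libraries. Epcam was 9.23-fold, Krt7 16-fold and Krt19 27.6-fold lower in the grape-like than the round-like library. The 10 cholangiocyte markers summed to 898 FPKM in the grape-like, 3529 in the intermediate and 3069 in the round-like library, with none at 0. Spp1 led these sums, at 796, 2899 and 2107 FPKM. Unlike Spp1, Epcam (197 against 274.5 FPKM), Krt19 (208 against 272) and Krt7 (29.9 against 64.9) were lower in the intermediate than the round-like library. The 10 Kupffer cell and macrophage markers summed to 10220, 2964 and 1621 FPKM with none at 0, led by Lyz2 at 5942, 1792 and 887 FPKM. The 10 stellate cell and fibroblast markers summed to 1620, 417.5 and 347.5 FPKM and the 10 sinusoidal endothelial markers to 205, 78.4 and 39.45 FPKM, with none at 0. The 10 hepatocyte markers summed to 4511, 7116 and 1144 FPKM, with none at 0. The part of these lists in the junction gene values was not tested.

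**Figure D5:**
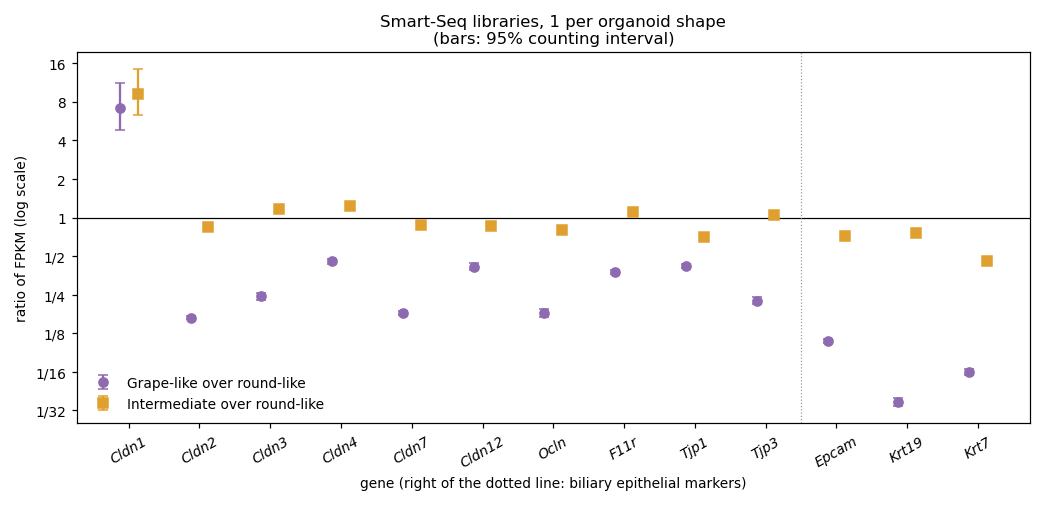
Ratio of FPKM on a log scale of the grape-like library (purple circles) and the intermediate library (orange squares) to the round-like library for the 10 tight junction genes and, right of the dotted line, for Epcam, Krt19 and Krt7, with 95% counting intervals and 1 library a shape. Cldn1 lies above 1 in both, and the other 9 genes in the grape-like library lie below 1, less far down than Epcam, Krt19 and Krt7.

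Relative to Epcam, which marks the biliary epithelium, the members stood higher in the grape-like library than in the round-like one. Cldn2 was at 2.25, 1.74 and 1.48 times Epcam and Tjp1 at 0.423, 0.108 and 0.109 times Epcam, in the order of shapes used above. This depended on the marker, as Spp1 was at 796 FPKM in the grape-like and 2107 in the round-like library. Relative to Spp1, Cldn2, Cldn3, Cldn7, Ocln, F11r and Tjp3 stood lower in the grape-like library, and Cldn1, Cldn4, Cldn12 and Tjp1 higher. The make-up of the claudins differed too. All claudins listed in that table summed to 170 FPKM in the grape-like library against 727 in the intermediate and 776 in the round-like one. Cldn2 made up 39.3%, 47.0% and 52.3% of that sum and Cldn4 16.4%, 10.5% and 7.92%. Cldn5, the claudin of endothelial junctions, made up 4.35% in the grape-like library, at 7.41 FPKM against 3.50 and 1.47 in the others, and was at 0 in all 21 bulk libraries.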

How the data were processed

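RNA of 24 mouse libraries was sequenced by the authors, who deposited 3 FPKM tables; per the labels and methods, poly(A) RNA was used for the bulk libraries, the build was mm10, and the submitters' processing notes name featureCounts 2.0.3 and edgeR 3.40.2. The aligner and the strand setting are not given in the sources used here. Samples were grouped by GEO's labels. In the hepatocyte table FPKM values were whole multiples of 1 fragment, which gave the depth. All (100%) lay within 0.02 of a whole number plus a margin that grew with the fragment number. At high fragment numbers that margin let any value pass. In the other tables depth was estimated from the same steps of 1 fragment.

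The members and gene lists were chosen with earlier results of these data known. Named genes were the 10 members, the 3 most abundant other tight junction genes, those with the largest changes among them, and the 2 genes closest in pattern to each member. Each bulk table was fitted alone with limma 3.58.1 in R 4.3.3 on log2(FPKM + 1), all its groups together, by lmFit and eBayes with a mean trend in the prior variance and two-sided tests, for genes at 1 FPKM or more in at least 3 libraries. The script was tested on simulated data. Smart-Seq ratios carry exact 95% intervals conditional on the fragment totals. Intervals and floors (3 fragments) cover counting error only. The sources do not settle whether replicates were separate mice or cultures, so p-values measure the spread between these libraries. Libraries with the same replicate number showed no shared deviation: the median correlation of same-numbered deviations was -0.01 over 9 pairs in Cho-Orgs and 0.00 over 18 in the hepatocyte table. This does not show whether same-numbered libraries had a common source. Coordinates were those of the hepatocyte table, identical to GENCODE M21 for 10 of 10 members. Of the 10 members, all matched RefSeq promoters (15 entries). Alternatives were another pseudocount, other filters, rescaling to TPM, size factors from median ratios, a prior variance without trend, limma-voom, 2-group fits, a replicate block and leaving out each replicate.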

Additional observations from a re-analysis of the deposited data

Results flagged for a closer look

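In Cho-Orgs, 4 of the 9 tight junction genes tested changed by different amounts between P0 and P5 and between P5 and P10. This was a test of the difference itself (limma, Benjamini-Hochberg adjusted over all genes tested). The second change minus the first was 0.73 on the log2(FPKM + 1) scale for Cldn3 (adjusted p = 0.001816) and 0.43 for Ocln (adjusted p = 0.00219), whose P10 libraries all lay above those of P0 and P5. It was -0.45 for Tjp1 (adjusted p = 0.003744) and -0.63 for Cldn4 (adjusted p = 0.02086), whose P0 libraries all lay below those of P5 and P10. In the same test 48.7% of all genes tested passed, so the count of members was near the share over all genes. The Cldn4 call was lost without replicate 1 and without replicate 3, and the Ocln call without replicate 3.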

How the results depend on the processing

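From P0 to P5 in Cho-Orgs, 7 members passed with values rescaled to TPM (6 higher, 1 lower) against 4 as reported. Leaving out a replicate gave 3 to 5 members called from P0 to P5, 6 to 7 from P0 to P10, 4 to 5 from P5 to P10 and 2 to 4 for the difference between the steps, the 2 being without replicate 3. For the other tight junction genes it gave 14 to 20, 19 to 22 and 13 to 17, where 21, 22 and 20 were reported, with 13 without replicate 3. In the hepatocyte table it gave 0 to 0 for every comparison. With median-ratio size factors, the log2 difference from P0 to P10 was -0.044 for Cldn7 and -0.025 for F11r, the reverse of the small positive values reported, and the split of all calls from P0 to P5 was 3212 higher and 3360 lower against 3938 and 2621. The cause was not tested. Single-gene calls changed elsewhere in 9 cases that lost and 6 that gained the threshold, and 340 kept direction and call. With a replicate block, 4, 6, 5 and 4 members passed in the comparisons of Cho-Orgs and 0 in the hepatocyte table, and the other tight junction genes numbered 21, 22 and 19, so the block changed no count by over 1.5 times. Without a filter on low values, Cldn1 was called lower from P0 to P10 (7 members in all), from about 3 to 6 fragments a library at P10. Groups of 3 libraries, 1 library a shape and separate normalization of the tables limit what can be compared.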
